A study of Mus musculus with 60 samples.

Results

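The genes of fatty acid and cholesterol synthesis were followed in mammary glands of ovariectomized mice given ovarian hormones. The set was a list of 37 gene symbols, 18 of fatty acid synthesis and its supply and control and 19 of sterol synthesis and its control. A gene was kept where the array annotation gave at least 1 probe set that symbol and no other, which held for 35 of the 37, with 78 of the 36899 probe sets read. G6pdx and Acat2 had no such probe set. The only probe set of Srebf2, the transcription factor that drives the sterol genes, read 2.3 to 31.2 over the 20 animals, against a level of 28.5 below which dim values of its array type were set to that level, and was not tested. That left 34 genes, 17 in each arm, of the 12233 genes tested in all.

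All 20 animals had been ovariectomized, so the ovary's own estrogen and progesterone were absent in every group, controls included. Each was injected into the abdominal cavity every day for 4 days. Sesame oil alone, 100 µl, went to the vehicle group (V, 4 animals). One group received 2 µg of 17-beta-estrogen (E, 4 animals), another 1 mg of progesterone (P, 4 animals) and another both hormones (E+P, 5 animals). The fat pads of the fifth group came from 3 further animals given both hormones and held no epithelium (E+P CFP). Strain and age were not given in the sources used here. A mammary gland from an ovariectomized mouse is mostly fat pad with a sparse tree of ducts, so its RNA mixes adipocytes, epithelium and other stroma. In such bulk samples, fewer cells of a type and less RNA per cell cannot be told apart.

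Both arms start from citrate that the carrier Slc25a1 moves out of mitochondria and that Acly splits into cytosolic acetyl-CoA. In the fatty acid arm Acaca turns acetyl-CoA into malonyl-CoA, Fasn joins malonyl units into palmitate, the Elovl enzymes lengthen it, and the Scd and Fads enzymes add double bonds. Me1 and Pgd make the NADPH that these steps use, and Srebf1 and Mlxipl are transcription factors that turn the arm on. In the sterol arm Hmgcs1 opens the mevalonate pathway, Mvk, Pmvk and Mvd carry mevalonate to an isoprene unit, Fdft1 makes squalene, Sqle oxidises it, and Lss and the later enzymes close and trim the sterol ring. Insig1 holds the sensor Scap in the endoplasmic reticulum when sterols are plentiful and is itself a target of the sterol-regulated factors. Adipose tissue and the lactating mammary epithelium both make fatty acids at high rates.

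Promoter sequences are shown for Insig1, Slc25a1, Acly and Mvd, 4 of the members described below. They run from 250 bases before to 50 bases after the annotated start and come from RefSeq with the build GRCm38.p6. The windows are chr5:28071162-28071461 on the plus strand for Insig1, chr16:17928170-17928469 on the minus strand for Slc25a1, chr11:100527951-100528250 on the minus strand for Acly and chr8:122443373-122443672 on the minus strand for Mvd. Each is written 5′ to 3′ on the gene's own strand. Capitals mark matches, on either strand, to 3 motifs: the sterol regulatory element core CACNCCAC, the CCAAT box searched as ATTGG, and the E-box CACGTG.
Insig1: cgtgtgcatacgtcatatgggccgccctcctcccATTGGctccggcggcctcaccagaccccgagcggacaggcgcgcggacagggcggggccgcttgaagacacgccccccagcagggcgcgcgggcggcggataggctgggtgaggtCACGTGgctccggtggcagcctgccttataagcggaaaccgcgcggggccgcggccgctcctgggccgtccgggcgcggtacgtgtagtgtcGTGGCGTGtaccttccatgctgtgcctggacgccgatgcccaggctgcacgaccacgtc
Slc25a1: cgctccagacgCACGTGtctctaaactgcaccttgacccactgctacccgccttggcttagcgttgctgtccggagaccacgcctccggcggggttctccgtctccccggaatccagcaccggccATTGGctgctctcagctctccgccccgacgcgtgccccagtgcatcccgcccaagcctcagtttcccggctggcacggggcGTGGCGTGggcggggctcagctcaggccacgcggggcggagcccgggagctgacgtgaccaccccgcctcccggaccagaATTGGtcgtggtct
Acly: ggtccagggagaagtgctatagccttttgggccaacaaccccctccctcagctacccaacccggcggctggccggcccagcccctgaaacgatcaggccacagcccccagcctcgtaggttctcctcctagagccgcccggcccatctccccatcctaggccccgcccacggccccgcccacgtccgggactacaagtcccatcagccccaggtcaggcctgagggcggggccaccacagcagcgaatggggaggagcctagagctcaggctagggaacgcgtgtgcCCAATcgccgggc
Mvd: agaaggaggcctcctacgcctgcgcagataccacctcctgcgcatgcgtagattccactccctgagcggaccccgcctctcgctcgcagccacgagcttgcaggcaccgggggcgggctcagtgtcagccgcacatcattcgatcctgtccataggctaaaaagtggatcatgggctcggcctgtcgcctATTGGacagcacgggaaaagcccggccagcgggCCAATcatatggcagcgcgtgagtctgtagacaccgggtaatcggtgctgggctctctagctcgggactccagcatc

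The Insig1 window held all 3 motifs, with the sterol element core starting 9 bases and the E-box 101 bases before the start. The Slc25a1 window also held all 3, with the sterol element core starting 44 bases before the start and CCAAT boxes on both sides of it. Acly had a single CCAAT box 37 bases after the start, and Mvd had CCAAT boxes 60 and 27 bases before it. Among windows not printed, that of Fasn held 3 CCAAT boxes but no sterol element core or E-box. That of Elovl6 held none of these motifs. Over the members, 14 genes of the fatty acid arm had 20 annotated promoters and 15 of the sterol arm had 19. The sterol element core was present in 3 of the 20 fatty acid promoters and 2 of the 19 sterol promoters, against 6.24% of all 32851 mouse promoters in the same table. The CCAAT box was present in 60.0% and 73.7% against 37.4%, and the E-box in 3 of 20 and 6 of 19 against 7.15%. A further motif, the GC box GGGCGG, which can overlap the others and is not capitalised, was present in 55.0% and 84.2% against 35.7%. The genes with a sterol element core in at least 1 window were Slc25a1, Mlxipl and Pgd in the fatty acid arm and Hmgcs1 and Insig1 in the sterol arm. Such matches describe the letters of these windows only.

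The samples differed in tissue makeup and RNA in ways that bear on these genes. The fat pads lacked the epithelium's markers: 6 of 14 tested luminal markers (Cldn7, Elf5, Epcam, Krt19, Krt7 and Krt8) were at the floor in all 3, and the summed signal of the 14 was 329 to 354 there against 5815 to 8981 in the E+P glands. Skeletal muscle markers summed to 7294 to 12168 in the fat pads and to 978 to 6661 over all intact glands, with the highest of these in E 1. The 15 adipocyte markers summed to 59852 to 65430 in the fat pads and to 33611 to 45445 in the E+P glands. Lymphocyte markers summed to 442 in the lowest and 4953 in the highest vehicle animal, V 4, and to 2969 to 11001 in E. The Gapdh control probe sets, whose 3′ signal grows over the 5′ one as RNA degrades, gave a ratio of 1.49 ± 0.21 (SD, n = 4) in E and 2.52 ± 0.79 (SD, n = 4) in V on array type A, an exact permutation p (two-sided) of 0.0286, which is the smallest for 4 against 4 and 0.114 when adjusted over 4 comparisons. It ranged from 1.26 to 4.39 within the fat pads.

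Between the hormone groups 1 member of 34 passed the test, and between gland and fat pad 12 did. The test was limma's, with a p-value adjusted over all tested probe sets and a threshold of 0.05, and differences are in log2 units of signal, first group minus second, with limma's standard error. In E against V, 0 of 34 members passed against 0.213% of all genes. In P against V 0 passed against 0% (smallest adjusted p over all genes 0.0649), in E+P against V 0 against 0.662%, then 0 against 0.229% with E in place of V, and in the interaction of E and P 0 against 0.0736%. In E+P against P Mvd alone passed, as higher, against 0.523% of all genes and 0.401% called higher. In E+P against E+P CFP, 12 of 34 passed and all were lower in the gland, against 10.4% of all genes and 3.53% called lower. At an unadjusted p under 0.05 the comparisons of E, P and E+P with V held 3, 5 and 6 members (8.82%, 14.7% and 17.6% of 34), against 12.5%, 7.64% and 12.3% of all genes. Those of E+P with E and with P held 4 and 6 (11.8% and 17.6%) against 10.6% and 12.8%, and the interaction held 3 (8.82%) against 11.7%.

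**Figure D1:**
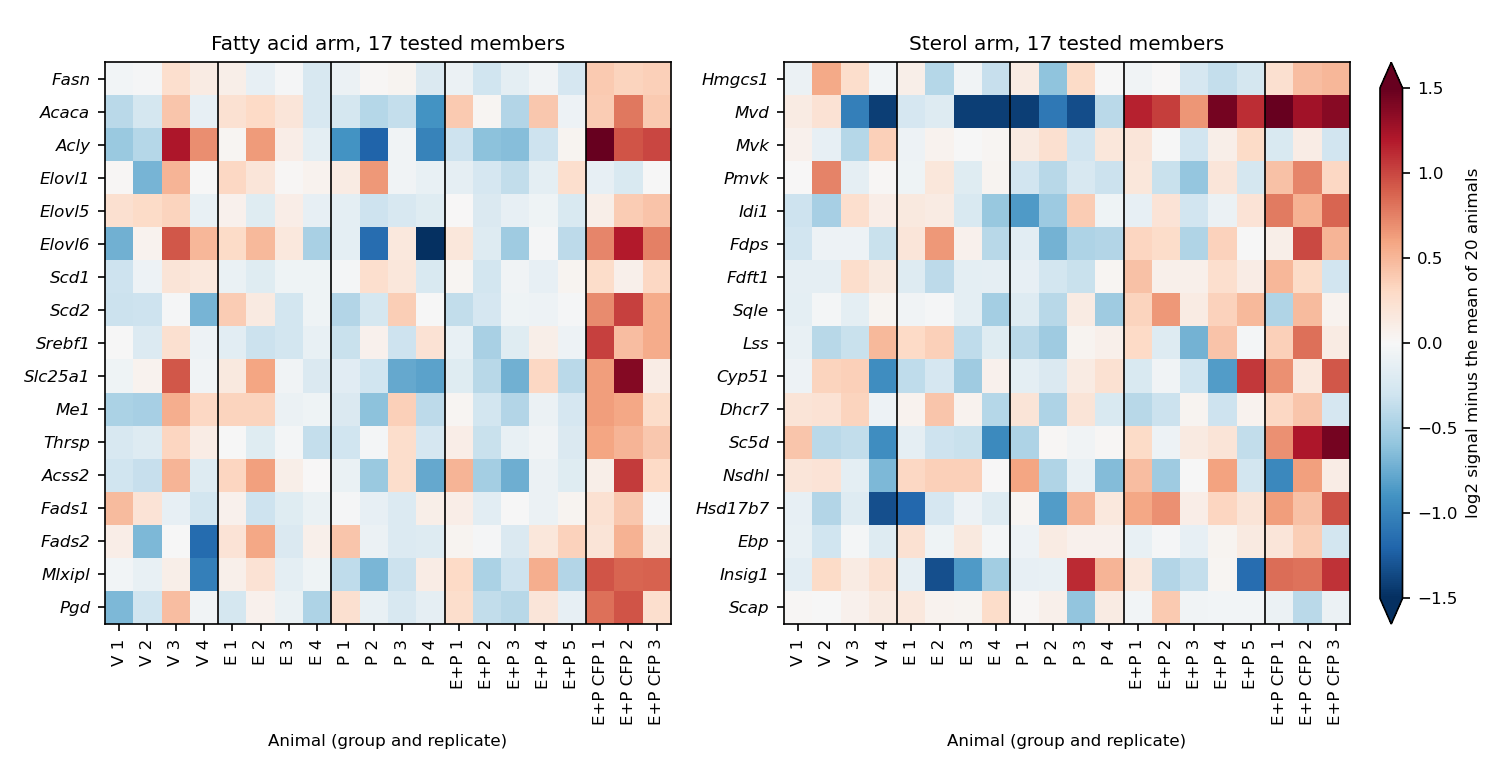
Log2 signal of each tested member in each animal, minus that gene's mean over the 20 animals, for 17 fatty acid genes and 17 sterol genes. Colours are cut at 1.5 log2 units either way, and lines part the groups. The fat pad columns are mostly red in both panels, and the Mvd row turns from blue to red between the P and E+P animals.

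Estrogen alone was set against vehicle to ask what it changes without progesterone. No member passed, and most stood within their spread. Fasn, the palmitate synthase, read 8276, 8442, 10134 and 9266 in V and 9039, 7839.7, 8420.4 and 7206 in E. These ranges overlapped, the difference was -0.15 ± 0.10 (95% interval -0.37 to 0.063), and the spread of Fasn within groups was the smallest of all members at 0.115 log2 units. Srebf1 stood at -0.20 ± 0.15, Acaca at 0.21 ± 0.21, Acly at -0.075 ± 0.32, Scd1 at -0.09 ± 0.13 and Thrsp, a lipogenic regulator named for its response to thyroid hormone, at -0.14 ± 0.14, and each interval included 0.

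Insig1 had the largest difference of either arm under estrogen. It read 356, 482, 433 and 463 in V and 359.8, 159, 219 and 276 in E, so 3 of the 4 E animals were below every V animal. The difference was -0.83 ± 0.28 (limma adjusted p = 0.228) and did not pass. In the fatty acid arm the desaturase Fads2 stood at 0.60 ± 0.25 (adjusted p = 0.328) and Scd2 at 0.38 ± 0.18 (adjusted p = 0.397). The brightest Fads2 probe set gave -0.05 and the second Scd2 probe set -0.27, neither past the threshold. The median over the fatty acid arm was -0.07 and over the sterol arm -0.11, beside 0.0002 over all genes. Without V 3, the fatty acid median became 0.17: V 3 had the highest V signal in 15 of the 17 fatty acid genes. In the same comparison 2 of 6 brown adipocyte markers, Ucp1 and Cidea, fell, and the list's median was -1.004. Whether that or the Gapdh ratio bears on the lipogenic values was not tested.

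Progesterone alone was compared with vehicle in the same way. None of the 12233 genes passed in limma, with 935 at an unadjusted p under 0.05. The 3 largest differences were those of Acly, Elovl6 and Slc25a1. Acly read 2415, 2641, 8202 and 5740.5 in V and 1911, 1547, 3410.0 and 1768 in P. P 1, P 2 and P 4 were below every V animal, but P 3 was not, and V itself spanned a wide range. The difference was -1.02 ± 0.32 (limma adjusted p = 0.447).

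Slc25a1, the citrate carrier, read 1603, 1728, 3178 and 1608 in V and 1485, 1357, 979.8 and 955 in P. No P animal reached a V animal, and the difference was -0.73 ± 0.27 (limma adjusted p = 0.496). Its other tested probe set stood at -0.95 (adjusted p = 0.282), also without overlap. Elovl6, which lengthens palmitate to stearate, read 978, 1673, 3071 and 2277 in V and 1452, 730.2, 1801 and 456 in P. P 2 and P 4 were below every V animal while P 1 and P 3 lay within the V range, and the difference was -0.93 ± 0.36 (adjusted p = 0.513). Elovl5, an elongase of polyunsaturated fatty acids, was not among the largest but had the smallest adjusted p of the arm, at -0.41 ± 0.11 (adjusted p = 0.37).

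The rest of the arm stood nearer 0 under progesterone. Fasn was at -0.14 ± 0.10, Scd1 at 0.054 ± 0.13, Srebf1 at -0.083 ± 0.15, Thrsp at -0.081 ± 0.14, Acaca at -0.39 ± 0.21 and Fads2 at 0.42 ± 0.25. In the sterol arm Mvd was at -0.53 ± 0.41, Pmvk at -0.48 ± 0.18, Hsd17b7 at 0.48 ± 0.34, Fdps at -0.25 ± 0.22, Insig1 at 0.23 ± 0.28, Hmgcs1 at -0.23 ± 0.18 and Sqle at -0.18 ± 0.19, with adjusted p-values from 0.513 to 0.88. Over the tested probe sets of a gene, differences ran from -0.48 to -0.14 for Fasn, -0.93 to -0.56 for Elovl6 and -0.15 to 0.05 for Scd1. They ran from -1.16 to -0.06 for Pmvk, -0.53 to -0.11 for Mvd and 0.02 to 0.48 for Hsd17b7. The fatty acid median was -0.14 with 12 of 17 genes below 0, and the sterol median -0.15 with 11 of 17 below 0, against a median of 0.0043 and 49.3% below 0 over all genes. Adipocyte markers had a median of -0.09 with 10 of 15 below 0 in the same animals and none past the threshold.

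**Figure D2:**
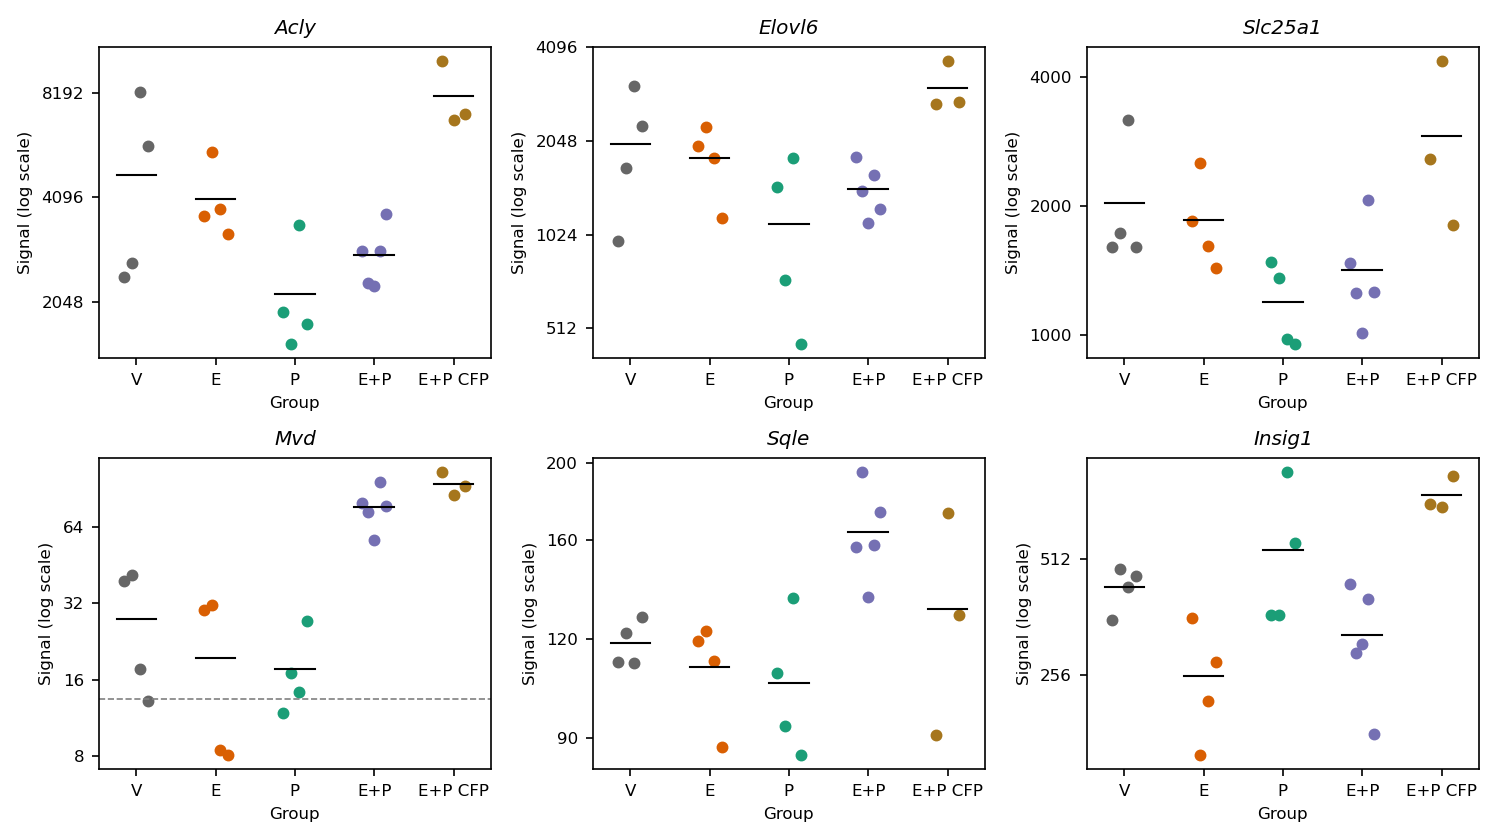
Signal of 6 members in each animal on a log scale, by group, with a bar at the group's mean. The dashed line in the Mvd panel is the level of 13.5 to which dimmer values were raised. Mvd was above 56 in all 5 E+P animals and below 42 in every V, E and P animal, and Insig1 was above 697 in all 3 fat pads.

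Both hormones together were compared with vehicle, with each hormone alone, and as an interaction, which asks whether the joint response departs from the sum of the single ones. Mvd, which removes a carboxyl group from mevalonate diphosphate to give the first isoprene unit, stood out of both arms. It read 39.1, 41.6, 17.6 and 13.2 in V, 30.2, 31.5, 8.50 and 8.10 in E, 11.8, 17.1, 14.3 and 27.2 in P and 79.7, 73.5, 56.8, 96.7 and 77.6 in E+P. Every E+P animal was above every V, E and P animal. Values under 13.5 were raised to that level before testing, which touched V 4, E 3, E 4 and P 1. To be tested, a probe set of array type A had to exceed 61.59 in at least 3 animals. No V, E or P animal did so for Mvd, which entered the test only through the E+P glands and fat pads. Its p-values thus come from a gene let in by the groups where it was high.

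Mvd rose in E+P against P by 2.13 ± 0.39 (limma adjusted p = 0.0179). Against V it stood at 1.60 ± 0.39 (adjusted p = 0.0755) and against E at 1.89 ± 0.39 (adjusted p = 0.0535), neither past the threshold, and its interaction was 2.42 ± 0.56 (adjusted p = 0.116). Leaving out P 1, P 3 or E+P 2 lost the call against P, with adjusted p-values of 0.0533, 0.0568 and 0.0548. Leaving out V 4 brought the difference from E and the interaction under the threshold, at 0.0286 and 0.0426. A second Mvd probe set, on array type C, stood at 0.07 in E+P against P (adjusted p = 0.888), -0.04 against V and -0.17 against E. It was far brighter, with mean signals of 5576 in P and 5872 in E+P against 17.6 and 76.9 on the first. The 2 probe sets of this gene thus disagree, and the rise was seen only on the dim one. In E+P against P luminal epithelium markers had a median of 0.89, with 3 of 14 called higher, and adipocyte markers one of -0.26, with 0 of 15 called.

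Sqle is the oxygenase that follows squalene synthesis. It read 112, 122, 112 and 128 in V, 119.5, 123, 113 and 87.6 in E, 109, 93.3, 135 and 85.7 in P and 157, 195, 136, 158 and 174 in E+P. Each E+P animal was above each animal of the other 3 groups, although E+P 3 exceeded P 3 by less than 1 signal unit. Its differences were 0.46 ± 0.18 against V, 0.57 ± 0.18 against E and 0.64 ± 0.18 against P (limma adjusted p = 0.327, 0.259 and 0.125), and its interaction was 0.75 ± 0.26 (adjusted p = 0.262). None passed.

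Other sterol members varied in sign. Fdft1, squalene synthase, read 273, 274, 361 and 332 in V, 264, 229, 272 and 275 in E, 277, 248, 239.7 and 308 in P and 407, 318, 317, 359 and 324 in E+P. The E+P animals lay above every E and P animal and overlapped V, at 0.16 ± 0.14 against V (limma adjusted p = 0.778), with an interaction of 0.61 ± 0.21 (limma adjusted p = 0.263). Hsd17b7, a reductase that also acts on estrone, stood at 0.89 ± 0.32 against V (adjusted p = 0.276), with V 4 at the level to which dim values were raised. Its other tested probe set, which was brighter, gave -0.05 (adjusted p = 0.944). The dimmer one had to exceed 85.7 in at least 3 animals to be tested. No V animal (highest 65.2) or E animal (highest 67.4) did so, and it was let in by groups where it was higher. Fdps, which makes farnesyl diphosphate, stood at 0.54 ± 0.21 against P (adjusted p = 0.278), Sc5d at 0.47 ± 0.27 against E and Pmvk at 0.32 ± 0.25 in the interaction. Insig1 stood at -0.47 ± 0.26 against V, -0.70 ± 0.26 against P (adjusted p = 0.267), 0.35 ± 0.26 against E and 0.13 ± 0.38 in the interaction, and Hmgcs1 at -0.36 ± 0.17 against V (adjusted p = 0.469).

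No fatty acid gene passed in any of these 4 comparisons, and against V 12 of the 17 were below 0. Fasn read 7991, 6927, 7684, 8204 and 7137 in E+P, all below the lowest V animal, and stood at -0.25 ± 0.10 (limma adjusted p = 0.338). That separation was seen on this probe set only. The other tested Fasn probe sets overlapped, at 2237 to 3826 in E+P against 2648 to 4005 in V, and 1282 to 2360 against 1666 to 2435. Acly stood at -0.60 ± 0.30, Slc25a1 at -0.50 ± 0.26, Elovl6 at -0.38 ± 0.34, Fads2 at 0.50 ± 0.23, Acaca at 0.16 ± 0.20, Srebf1 at -0.14 ± 0.14, Thrsp at -0.12 ± 0.14 and Scd1 at -0.067 ± 0.12. Against E, Acly stood at -0.52 ± 0.30, Acss2, which makes acetyl-CoA from acetate, at -0.46 ± 0.25, Slc25a1 at -0.40 ± 0.26 and Me1 at -0.34 ± 0.21. Against P, Acaca stood at 0.55 ± 0.20 (adjusted p = 0.25), Elovl6 at 0.55 ± 0.34 and Acly at 0.42 ± 0.30. The comparisons with V, E and P share the E+P animals.

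**Figure D3:**
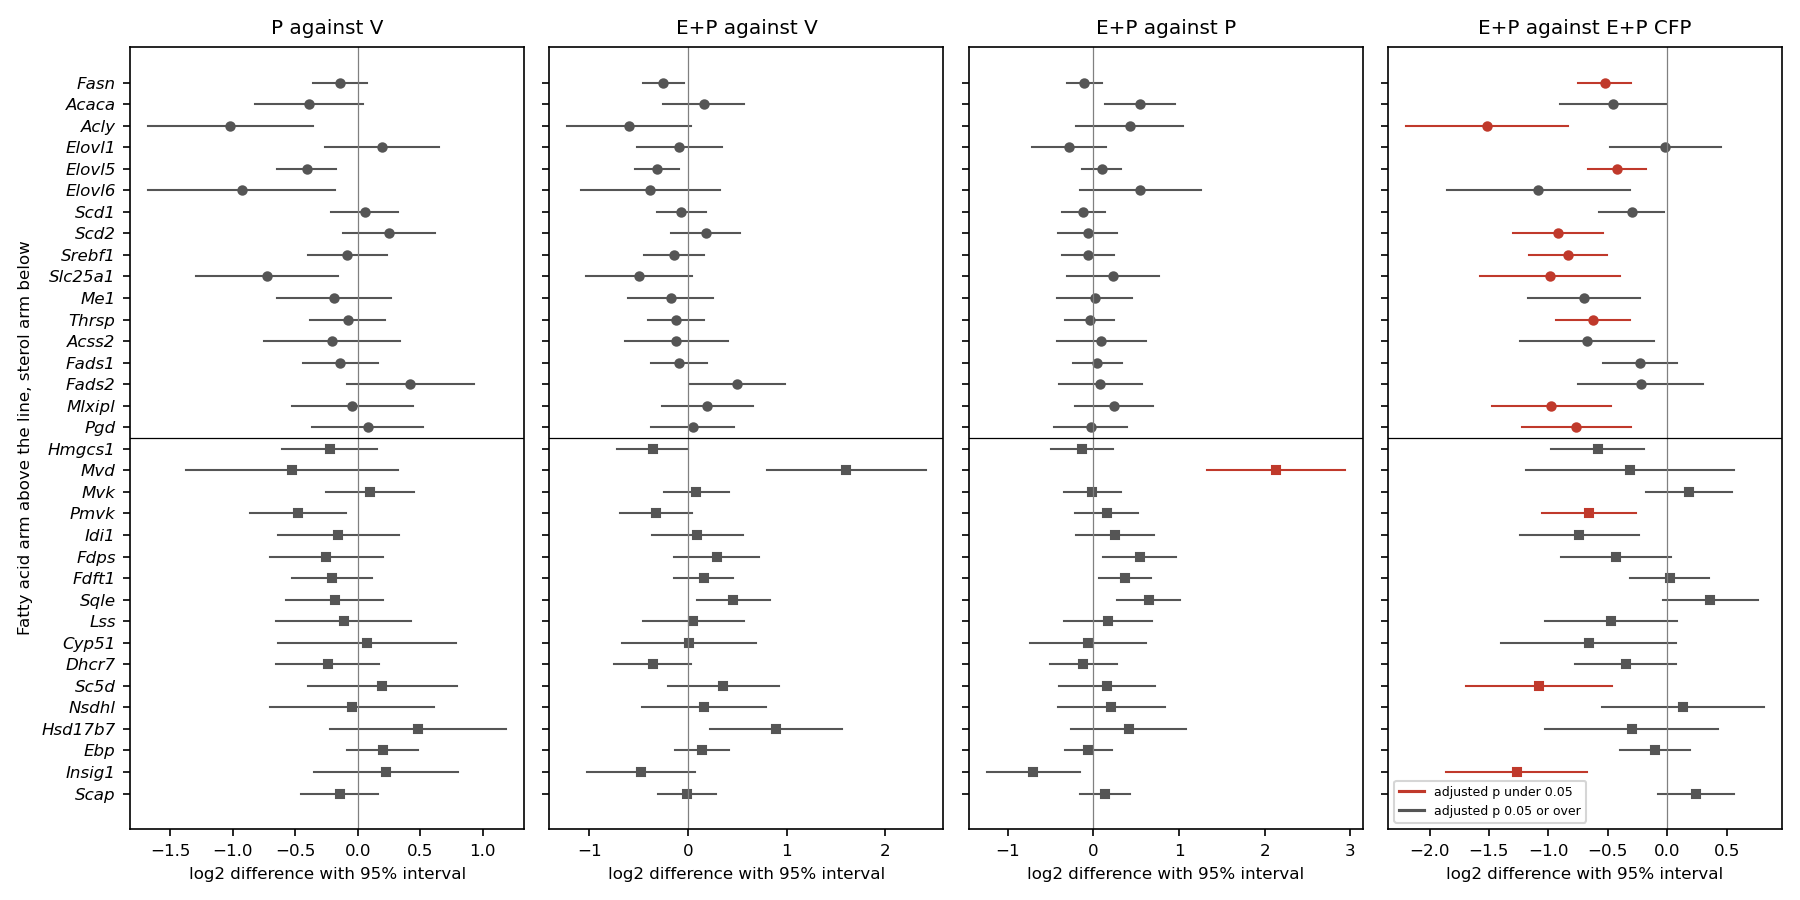
Log2 difference of each tested member with its 95% interval in 4 comparisons, fatty acid genes as circles and sterol genes as squares. Red marks an adjusted p under 0.05 in limma: none in the first and second panels, Mvd in the third, and 9 fatty acid and 3 sterol genes, all to the left of 0, in the last.

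The arms were set beside each other within each animal, as the mean log2 deviation of the 17 sterol genes minus that of the 17 fatty acid genes. The difference was 0.16, 0.38, 0.19, 0.12 and 0.19 in E+P 1 to E+P 5, above 0 in all 5. It was -0.18, -0.23, -0.17 and -0.16 in E 1 to E 4, below 0 in all 4. In V it was 0.16, 0.21, -0.47 and -0.15, in P -0.02, -0.08, 0.03 and 0.32, and in the fat pads -0.21, -0.12 and 0.02. The E+P and E animals did not overlap, while V and P animals lay on both sides of 0. With Mvd left out of the sterol mean, the E+P animals lay between 0.04 and 0.32 and the E animals between -0.22 and -0.09.

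By comparison rather than animal, the sterol median under both hormones was 0.10 against V, 0.05 against E, 0.16 against P and 0.23 in the interaction, where 14 of 17 genes were above 0. The fatty acid medians were -0.12, -0.10, 0.05 and 0.05, and those over all genes 0.020, 0.018, 0.012 and 0.021. The sterol median against V turned to -0.03 when arrays were scaled to a common median, which moved the median of all genes by -0.07. The sterol interaction median was 0.06 without P 2. These medians are descriptions of the lists.

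**Figure D4:**
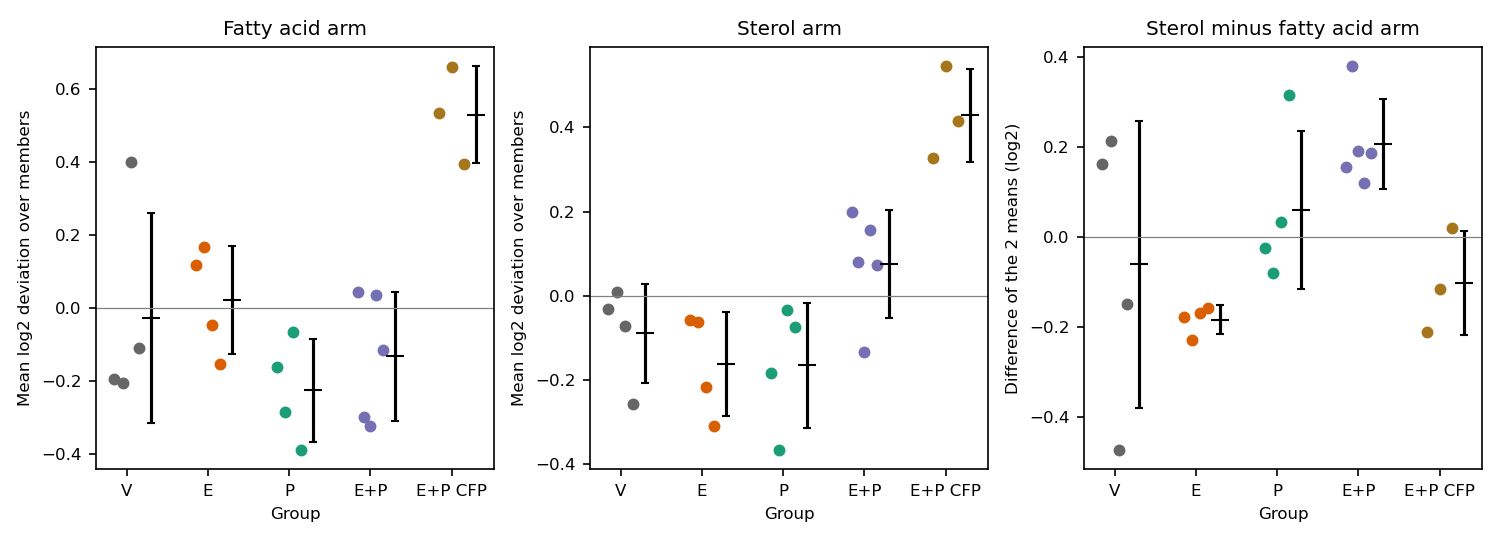
Mean log2 deviation from the 20-animal mean over the 17 fatty acid genes, over the 17 sterol genes, and the second minus the first, 1 point an animal, with the group's mean and SD. The fat pads have the highest group mean in both arms, V 3 stands at 0.40 in the fatty acid arm beside fat pads of 0.40 to 0.66, and all 5 E+P animals lie above 0 in the third panel.

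E+P glands were compared with epithelium-free fat pads of animals under the same hormones, a design that sets the stroma apart from the whole gland. Of the 17 fatty acid genes all were lower in the gland, 9 past the threshold, with a median of -0.68. Of the 17 sterol genes 12 were lower, 3 past the threshold, with a median of -0.35. Over all 12233 genes 47.2% were below 0, the median was 0.03, and 6.91% were called higher. With arrays scaled to a common median, the median of all genes moved by -0.15, and the arms' medians relative to it were -0.73 and -0.42.

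Acly had the widest difference of the fatty acid arm. It read 2859, 2314, 2272, 2859.9 and 3659.6 in the E+P glands and 10094, 6811 and 7106 in the fat pads, and no gland reached a fat pad. The difference was -1.52 ± 0.33 (limma adjusted p = 0.00487). Slc25a1, upstream of it, read 1477, 1254, 1012, 2072 and 1265 in the glands and 2573, 4353 and 1804 in the fat pads. Here E+P 4 exceeded E+P CFP 3, and the difference was -0.99 ± 0.28 (adjusted p = 0.0331). Its second probe set gave -1.23 (adjusted p = 0.0023) with no overlap.

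Fasn read 7991, 6927, 7684, 8204 and 7137 in the glands and 11136, 10729 and 10889.5 in the fat pads. The fat pads lay close together and above every gland, at -0.53 ± 0.11 (limma adjusted p = 0.00295), and 2 further Fasn probe sets stood at -0.57 and -0.56 without passing (adjusted p = 0.0912 and 0.121). Acaca, the step before it, stood at -0.46 ± 0.21 (adjusted p = 0.232), with overlap. Among the desaturases, Scd2 read 1771, 1926, 2177, 2167 and 2259 in the glands and 3725, 4663 and 3372 in the fat pads, without overlap. Its difference was -0.92 ± 0.18 (adjusted p = 0.00248). Scd1, the main adipose desaturase, stood at -0.30 ± 0.13 (adjusted p = 0.199), also without overlap but not past the threshold. Fads1 stood at -0.23 ± 0.15 and Fads2 at -0.22 ± 0.25.

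The regulators were lower in the gland as well. Srebf1 read 2124, 1634, 2023, 2443 and 2181 in the glands and 4688, 3153 and 3386 in the fat pads, with no overlap, at -0.84 ± 0.16 (limma adjusted p = 0.00155). Mlxipl, the carbohydrate-responsive factor, read 710.2, 414, 464, 839 and 424 in the glands and 1104, 1054 and 1061 in the fat pads. The 3 fat pads were nearly equal and above every gland, at -0.97 ± 0.24 (adjusted p = 0.0122). Thrsp read 7589.6, 5622, 6574, 6849 and 6099 in the glands and 10679.7, 10136 and 9382 in the fat pads, again without overlap, at -0.63 ± 0.15 (adjusted p = 0.0105).

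Of the enzymes that lengthen fatty acids, Elovl5 read 1022, 878, 936, 978 and 868 in the glands and 1085, 1325 and 1374 in the fat pads, at -0.43 ± 0.12 (limma adjusted p = 0.0277). Elovl6 stood at -1.09 ± 0.37 and missed the threshold (adjusted p = 0.0809), while its second probe set passed at -1.33 (adjusted p = 0.0206). Elovl1, which serves very long chains, stood at -0.015 ± 0.23 (95% interval -0.48 to 0.45), the value nearest 0 in the arm. Of the NADPH sources, Pgd read 954, 617, 595, 899 and 730.4 in the glands and 1405, 1528 and 944 in the fat pads, with E+P 1 above E+P CFP 3, at -0.76 ± 0.22 (adjusted p = 0.036). Its dimmer second probe set gave 0.34 in the opposite direction (adjusted p = 0.731), and the mean of both gave -0.21 (adjusted p = 0.658). Me1 stood at -0.70 ± 0.23 (adjusted p = 0.0659) and Acss2 at -0.68 ± 0.27 (adjusted p = 0.148).

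In the sterol arm Insig1, Sc5d and Pmvk passed, and of the other 14 genes 9 were lower in the gland, with a median of -0.31. Insig1 read 441, 291, 308, 403 and 179 in the glands and 710.1, 697 and 839 in the fat pads, with no overlap, at -1.27 ± 0.29 (limma adjusted p = 0.0062). Sc5d, a desaturase of the last steps, read 62.4, 48.6, 55.9, 58.3 and 39.5 in the glands and 81.9, 118 and 139 in the fat pads, at -1.08 ± 0.29 (adjusted p = 0.0255), but its 2 other tested probe sets stood at -0.11 and 0.015. The probe set that passed had to exceed 61.59 in at least 3 animals to be tested. It met that only through the fat pads, since its highest signals elsewhere were 68.2 in V, 46.6 in E, 51.6 in P and 62.4 in E+P. Its call thus comes from a gene let in by the group where it was high. Pmvk read 455, 321, 269.8, 459.5 and 338 in the glands and 546, 672 and 502 in the fat pads, at -0.66 ± 0.19 (adjusted p = 0.0344), while its 2 other tested probe sets stood at -0.54 and 0.13 without passing.

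The remaining sterol genes did not pass. Hmgcs1 stood at -0.59 ± 0.19, Idi1, the isomerase of isoprene units, at -0.74 ± 0.24 and Cyp51, the lanosterol demethylase, at -0.66 ± 0.35 (limma adjusted p = 0.0607, 0.0641 and 0.312). Mvd read 105, 85.9 and 92.5 in the fat pads, near its E+P gland signals, at -0.31 ± 0.42 (95% interval -1.19 to 0.56). Its second probe set stood at 0.06 (adjusted p = 0.86). Fat pads of other groups were not analysed here. Sqle was the highest value of the arm at 0.36 ± 0.19 (adjusted p = 0.307), and its fat pad signals of 90.9, 173 and 129 overlapped those of the glands.

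Leaving out E+P 2, E+P 5, E+P CFP 1 or E+P CFP 2 left 7 calls each, all among the 12. Over all tested probe sets the same fits called 1454, 1414, 1093 and 1457, against 1821 with every animal. Of the 12, 5 held whichever single animal was left out: Fasn, Acly, Scd2, Srebf1 and Insig1. Leaving out V 4, E 1 and E+P CFP 1 together, a choice made after seeing the data, gave 7 calls, with Acly at an adjusted p of 0.0518. Quantile normalization also gave 7 and put Fasn at -0.24 (adjusted p = 0.264).

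Cell type markers moved with this comparison. All 15 adipocyte markers were lower in the gland, 10 past the threshold, with a median of -0.64, among them Lpl at -0.92 and Pparg at -1.30. Of 6 tested brown adipocyte markers 3 were below 0, 0 were called lower and 1 was called higher, with a median of 0.19. One of them, Ucp1, was at the floor in all 3 fat pads. All 14 skeletal muscle markers were lower past the threshold, with a median of -3.10, and all 14 luminal markers were higher, with a median of 3.89. Adipocyte markers averaged 0.45 log2 units over the 20-animal mean in the fat pads and -0.27 in the E+P glands, against 0.53 and -0.13 for the fatty acid genes. The part of these markers in the lipogenic differences was not tested.

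Other genes of the pathways, listed apart from the members, gave the wider setting. Of 16 further tested fatty acid genes 3 were lower and 3 higher in the gland than in the fat pad, with a median of -0.02. Lower were Mid1ip1, which promotes the activity of acetyl-CoA carboxylase, at -1.41 (limma adjusted p = 0.000524), the NADPH source Idh1 at -0.94 and Aacs, an acetoacetate ligase, at -0.68. Higher were the elongase Elovl7 at 1.26, Hacd3, a dehydratase of elongation, at 0.77, and Acss1, a mitochondrial acetate ligase, at 0.61. Of 12 further sterol genes 0 passed (median -0.04). Of 16 genes of glyceride synthesis and its control 5 were lower and none higher (median -0.48): the acyltransferases Gpam at -1.52 and Agpat3 at -0.89, Pnpla3 at -1.26, Gpd1, which makes glycerol phosphate, at -0.97, and the phosphatase Lpin1 at -0.86. No gene of these 3 lists passed in the 6 comparisons among intact glands.

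The probe sets of Fads2 also disagreed in direction. The probe set that stands for the gene gave -0.22 between gland and fat pad (limma adjusted p = 0.698), while 2 others gave 1.64 and 1.09 in the opposite direction (adjusted p = 0.0113 and 0.00212). On the brighter of these, the E+P glands read 1461, 1867, 1539, 1110.0 and 1666, and the fat pads 645, 667 and 832. No fat pad reached a gland there, and that probe set was also at 0.80 in E+P against V (adjusted p = 0.0805). The probe set at 1.64 was dimmer, at 93.8 to 195.6 in the E+P glands and 11.8 to 66.4 in the fat pads. There 2 of 3 fat pads were at the floor, so its size rests on raised values. It had to exceed 85.7 in at least 3 animals to be tested, which no V animal (highest 84.7) or fat pad did. Taking the brightest probe set a gene, or the mean of all, left 15 of 17 fatty acid genes lower in the gland.

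The members also differed in how steady they were within groups. The SD within groups was 0.575 log2 units for Elovl6, 0.542 for Mvd and 0.505 for Acly, and 0.115 for Fasn, 0.142 for Elovl5 and 0.16 for Ebp, the isomerase of the late sterol steps. The median was 0.307 over fatty acid genes, 0.331 over sterol genes and 0.33 over all genes. E+P 3 had the lowest E+P signal in 9 of 17 fatty acid and 11 of 17 sterol genes.

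The genes outside the list whose signals ran most like the fatty acid mean over the 20 animals were Tkt (Pearson r = 0.912), Mtarc1 (0.901), Pdhb (0.877), Aldoa (0.875) and Ldha (0.84), out of 12199 compared. For the sterol mean they were Mid1ip1 (0.893), Vamp3 (0.854), Unc5a (0.843), Psph (0.837) and Mrpl20 (0.831). Over the 17 intact glands alone, Tkt, Mtarc1 and Pdhb stayed the first 3 for fatty acids at 0.841, 0.822 and 0.789, and of the sterol list only Vamp3 was again among the first 5, at 0.761. These points share arrays, groups and tissue makeup, and the values are descriptions.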

How the data were processed

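Total RNA of 20 animals was read on 3 Affymetrix array types, A, B and C, 60 arrays in all. The deposited files hold 1 linear signal intensity a probe set, which the authors made with MAS5 according to the submitters' processing notes, with no version or setting stated there. Arrays sharing a group and number were taken as 1 animal. Groups follow the sample titles, since the description of the vehicle samples names progesterone. Each array was scaled to a common 2% trimmed mean, values under the 25th percentile (13.5, 28.5 and 19.8 on A, B and C) were raised to it, and log2 was taken. Probe sets above the 50th percentile in at least 3 animals entered a limma model (version 3.58.1, R 4.3.3) of 5 group means with an intensity trend, which was tested on simulated data. Benjamini-Hochberg adjustment ran over 23055 probe sets. Each gene had 1 representative probe set: A before B before C, then no special suffix, then the highest mean.

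Genes named were members past the threshold, up to 4 of the largest differences an arm where fewer passed, and a fixed set of 10. Nothing in the labels says how animals were housed or batched, and p-values measure the spread between these samples. The number of animals limits the precision. Alternatives changed the scaling, floor, filter, variance model, probe set choice and animals. The members, lists and tests were chosen with earlier results of these data known.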

Additional observations from a re-analysis of the deposited data

Results flagged for a closer look

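In 88 groups of values of 4 or 5 animals, 5 had an animal far from the rest of its group, where chance gives about 1 in 20. Slc25a1 in V 3 was at 11.6 log2 units, with the nearest V animal at 10.8. The fatty acid arm's mean in V 3 was 0.40, with the nearest V animal at -0.11. Pmvk in V 2 was at 9.40, with the nearest at 8.68. Sc5d in P 1 was at 5.21, with the nearest at 5.62. The sterol minus fatty acid difference in E+P 2 was 0.379, with the nearest E+P animal at 0.191.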

How the results depend on the processing

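With arrays scaled to a common median, the sterol medians were -0.032 in E+P against V and -0.54 in E+P against E+P CFP, with all genes at -0.05 and -0.12. Mvd became the 1 member called in E+P against V with the floor at the 40th percentile or the mean of all probe sets, and in E+P against E with these 2, log2(value + 16), no intensity trend or array weights. In E+P against P 0 members were called with the brightest probe set or with the replicate number as a block. The count was also 0 when probe sets had to be bright in 10 animals, where the Mvd probe set was removed and not tested. Whether equal numbers mark a pair or batch is not in the labels. With group means removed, 0 of 36 same-numbered pairs from different groups correlated above 0.1. Their median correlation was 0.0136, against -0.0048 for other pairs, which cannot exclude a pairing. In E+P against E+P CFP, 7 were called with quantile normalization and 7 without V 4, E 1 and E+P CFP 1 (chosen after seeing the data). The replicate block gave 6, and arrays scaled to a common median gave 17. Over all tested probe sets these 4 settings called 1518, 1073, 1380 and 2039, against 1821 in the main fit. Of those, 1025, 805, 942 and 830 were higher, against 1208 in the main fit, where all 12 members called were lower. With arrays scaled to a common median the higher calls fell, while all calls together and the members called rose. The sterol minus fatty acid value was -0.27 in V 3 with the brightest probe set and -0.0031 in E+P CFP 1 with quantile normalization. Leaving out each animal in turn gave fatty acid medians in E against V of -0.19 to 0.17, sterol interaction medians of 0.059 to 0.29, and 0 to 1 members called in E+P against E, 0 to 1 in E+P against P, 0 to 1 in the interaction and 7 to 15 in E+P against E+P CFP. Of the 12 calls in E+P against E+P CFP, those of Acly, Scd2, Srebf1 and Insig1 held under every alternative but that removal of 3 animals, where Acly was at 0.0518, and the other 8 were lost under at least 1. Gained as lower under at least 1 were Acss2, Elovl6, Hmgcs1, Idi1, Me1 and Scd1, and Fads2 passed as higher with the brightest probe set or the mean of all. No member called in the main fit changed sign, while Fads2, not called there, did. Dim probe sets such as Mvd's measure differences less well.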
